A study of Mus musculus with 3 samples.

Results

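The 39 kinesin motor genes measured in thymocytes, immature T cells still in the thymus, of wild-type mice were examined out of 19938 named genes. Members were the genes whose only symbol in the platform annotation was Kif or Kifc followed by a number, with or without letters. They were placed by their known roles into 11 mitotic, 7 neuronal, 9 ciliary and 8 general transport kinesins, and 4 kinesins stayed outside these classes. The mitotic kinesin gene Kifc1 has no probe set to itself in the annotation and was not a member. Total RNA of thymocytes from 3 mice, numbered 92, 103 and 106, was hybridised to Affymetrix MoGene 1.0 ST arrays, where short probes, grouped into probe sets, read each transcript. The 3 mice form 1 group: genotype wt, on a background that mixes FVB and C57BL6, with no treatment, age or sex in the labels. The arrays belong to a study of invasive lymphoma in tPTEN-/- mice, and the lymphomas were not analysed here. Each sample is labelled with 0.3 µg of RNA and with a low integrity number (RIN) of 3, and the labels enter a lymphoma under disease state although title and genotype read wt.

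Kinesins are motor proteins that use ATP to walk along microtubules or to take microtubule ends apart. One set is made for cell division: these motors separate the spindle poles, align chromosomes and build the midzone where the cell is cut in 2. Another set carries vesicles, mitochondria and protein complexes through the cytoplasm, most famously along axons, and a further set moves cargo into cilia or shapes them. Thymocytes divide in bursts during their development and carry no motile cilia. Genes of mitosis are often controlled through the cell cycle gene homology region, CHR, a hexamer near the transcription start that the DREAM and MuvB complexes bind, and many also carry CCAAT boxes.

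The CHR hexamer was found in most promoters of mitotic kinesins and in few of other kinesins. RefSeq promoter windows of build GRCm38.p6, from 250 bases before to 50 after each listed start, were at hand for 31 of the 39 members. They were searched on both strands for the CHR hexamer TTTGAA, for its variant TTTAAA and for CCAAT. The first pair differ in 1 letter and were counted separately. TTTGAA was present for 9 of the 10 mitotic kinesins with a window, and for 3 of the 21 other kinesins with one (14.3%). Kif2b, a spindle motor known mainly from testis, was counted among the others. With it in the mitotic class the count was 9 of 11. Kif2a, placed in general transport but counted as mitotic in an alternative, had no TTTGAA in its windows either, so counting it there would also lower the share. Among all 27025 genes of the promoter table the share was 20.2%, and among the 9791 genes above background in these thymocytes that had a window it was 13.99%. A list of 24 mitosis genes, many of which work with these motors, had TTTGAA in 15 of 21 windows (71.4%). The median GC content was 60.2% for the mitotic kinesins and 60.7% for genes above background. These shares describe letters in a window, were not tested, and say nothing of binding, which was not measured.

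The stretches below run from 40 bases before the start to 30 bases after it, 5′ to 3′ along the gene. TTTGAA or its reverse complement TTCAAA stands in capitals. The first 7 are the mitotic kinesins with the hexamer near the start. Kif18a follows as the mitotic kinesin without it, and Kif5c and Kif3c as neuronal kinesins without it.
Kif11, chr19:37376342-37376411, plus strand: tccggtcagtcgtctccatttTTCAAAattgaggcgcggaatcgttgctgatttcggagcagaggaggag
Kif15, chr9:122951041-122951110, plus strand: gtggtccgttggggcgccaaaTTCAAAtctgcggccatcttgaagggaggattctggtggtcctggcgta
Kif22, chr7:127042391-127042460, minus strand: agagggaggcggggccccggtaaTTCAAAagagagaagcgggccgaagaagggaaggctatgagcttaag
Kif18b, chr11:102925095-102925164, minus strand: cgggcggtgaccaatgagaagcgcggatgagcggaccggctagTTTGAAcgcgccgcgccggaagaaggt
Kif20b, chr19:34922318-34922387, plus strand: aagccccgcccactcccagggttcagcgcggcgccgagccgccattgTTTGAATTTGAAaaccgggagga
Kif23, chr9:61946770-61946839, minus strand: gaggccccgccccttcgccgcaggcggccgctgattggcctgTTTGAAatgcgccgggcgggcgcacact
Kif4, chrX:100626025-100626094, plus strand: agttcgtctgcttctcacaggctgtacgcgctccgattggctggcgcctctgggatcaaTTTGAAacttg
Kif18a, chr2:109280698-109280767, plus strand: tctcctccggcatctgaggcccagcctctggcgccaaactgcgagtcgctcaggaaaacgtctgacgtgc
Kif5c, chr2:49619246-49619315, plus strand: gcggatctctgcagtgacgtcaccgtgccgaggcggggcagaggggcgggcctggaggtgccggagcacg
Kif3c, chr12:3365092-3365161, plus strand: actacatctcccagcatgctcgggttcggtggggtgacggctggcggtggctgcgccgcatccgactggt

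The hexamer of these 7 genes lay close to the start, which is counted as +1 with the base before it as -1. Its first base stood at -19 in both Kif11 and Kif15, at -17 in Kif22, at 3 in Kif23, at 4 in Kif18b and at 20 in Kif4. Kif20b held a tandem pair, at 8 and 14. In Kif2c the match was farther upstream, at -103, and in Kif14 at -228, where the variant TTTAAA stood nearer, at -42. Kif15 and Kif22 each had another match far upstream, at -234 and -215. Within 50 bases of the start, a limit set after the positions were seen, 7 of 10 mitotic kinesins had TTTGAA (70.0%). So did 14 of the 21 mitosis partner genes with a window (66.7%), 2 of 21 other kinesins (9.52%) and 5.72% of all genes in the table. Among the other kinesins the hexamer was found in Kif1a, at -44 in 1 of its windows, in Kif26b at -9, and in Kif27, where 3 matches began at -191, -89 and -73. Listed starts can differ between transcripts of a gene, which would shift these distances.

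**Figure D1:**
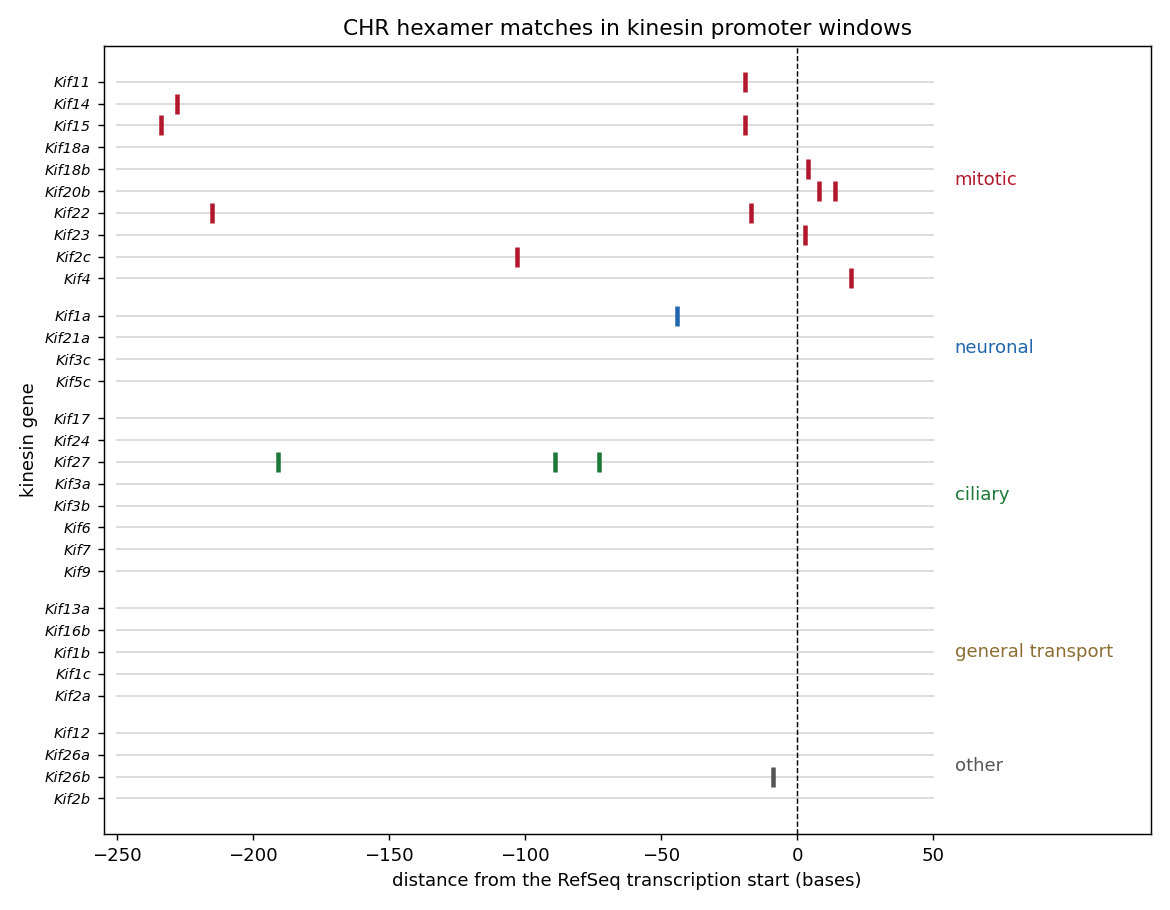
Positions of the CHR hexamer, either strand, in the promoter windows of 31 kinesin genes, grouped by class; the horizontal axis is the distance in bases from the RefSeq start, and a tick marks the first base of a match. Ticks of 7 mitotic kinesins crowd around the start, while windows of the general transport class hold none.

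CCAAT was found in 6 of 10 mitotic windows (60.0%), 5 of 8 ciliary (62.5%), 0 of 4 neuronal and 1 of 5 general transport kinesins and in 2 of 4 kinesins outside the classes, against 41.1% of all genes in the table. Kif11, Kif14, Kif18b, Kif22, Kif23 and Kif4 held both CCAAT and TTTGAA, 60.0% of the mitotic kinesins with a window, and so did 61.9% of the mitosis partners and 8.97% of all genes. The variant TTTAAA occurred in 2 of 10 mitotic windows, those of Kif14 and Kif2c, and in 14.9% of all genes.

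Thymocyte markers were detected on all arrays. All 10 of them lay above background on each array, with Satb1 at 13.70 ± 0.07, Rag1 at 13.59 ± 0.22 and Cd3g at 13.30 ± 0.04 on the log2 scale (SD, n = 3). Markers of other cells also passed: 5 of 6 erythroid genes, 7 of 9 neutrophil genes, 5 of 7 B cell genes and 5 of 8 thymic epithelial genes. As 61.7% of all named genes passed, these counts do not show that such cells were present. Some levels were high. In mice 92, 103 and 106 the genes with the highest means were Tfrc (9.93, 9.73 and 9.93) of the erythroid list and Ngp (6.88, 9.63 and 9.61) of the neutrophil list. Those of the B cell and epithelial lists were Cd79b (8.47, 9.56 and 8.85) and Ly75 (8.56, 8.57 and 8.63). The erythroid gene Alas2 read 8.18, 10.14 and 10.03. Whether other cells were present was not tested. The neutrophil markers lay a median of 1.23 below their 3-mouse mean in mouse 92 (deviation -1.23), the B cell markers 0.60 below it (-0.60) and the erythroid markers 0.31 below it (-0.31), all on the log2 scale. Background was set on each array at the 95th percentile of 1191 olfactory, vomeronasal and trace amine receptor genes, and this threshold lay between 5.92 (mouse 92) and 6.10 (mouse 103). Precision is limited by there being 3 arrays. Probe sets differ in how well they bind their target, so levels are set against this background and between mice, not between genes. In whole thymocyte RNA a lower signal from fewer expressing cells and one from less RNA per cell cannot be told apart.

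The kinesins placed in the mitotic class were detected. On each of the 3 arrays 11 of 11 lay above background, against 61.7% of all named genes. With Kif2b, a spindle motor known mainly from testis that had been left outside the classes, the count was 11 of 12. At the stricter 99th percentile of the receptor genes 10 of 11 still passed, where 46.7% of all named genes did. At the 90th percentile 11 of 11 passed, against 69.2%.

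Among the motors that build the spindle, Kif11, the kinesin-5 that pushes the poles apart, read 10.08 in mouse 92, 9.96 in mouse 103 and 10.04 in mouse 106 on the log2 scale; values below keep this order. Kif15, a kinesin-12 that helps to keep the spindle bipolar, was at 9.32, 9.22 and 9.59. Kif15 read highest in mouse 106, while the values of Kif11 spanned 0.114. Kif18a, the kinesin-8 that damps chromosome movement at the metaphase plate, was at 8.29, 8.10 and 8.14, and its relative Kif18b, which works at the ends of astral microtubules, at 8.85, 9.08 and 9.30. Mouse 92 was the highest for Kif18a and the lowest for Kif18b. Kif2c, a kinesin-13 that takes microtubules apart at centromeres, was at 9.24, 9.36 and 9.43, lowest in mouse 92 and highest in mouse 106.

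Both motors that ride on chromosomes were detected. Kif22, a kinesin-10, read 9.11, 9.45 and 9.43, lowest in mouse 92. Kif4, a kinesin-4 of chromosome arms and of the midzone, was at 8.58, 8.54 and 8.64, and its 3 values lay within 0.10 of each other.

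The motors of the midzone and of cytokinesis followed. Kif23, the motor subunit of centralspindlin, was at 9.74, 9.77 and 9.86, and Racgap1, its partner in that complex, at 9.94, 9.96 and 10.06. Both genes had the same order of mice, with differences of at most 0.12. Kif20a, which brings the chromosomal passenger complex to the midzone, was at 8.87, 8.81 and 8.91. Kif20b, a relative that acts late in cytokinesis, was at 8.99, 8.50 and 8.72. Mouse 103 was lowest for both, and the range of Kif20b, 0.50 on the log2 scale or 1.41-fold, was the widest among the members. Kif14, which binds citron kinase at the midbody, was at 6.29, 6.32 and 6.63 as the mean of 2 probe sets that disagreed. Its probe set 10350297 read 8.39, 8.27 and 8.78, while 10350329, tied in the annotation to a single transcript record, read 4.18, 4.37 and 4.48, below background. The failure of Kif14 at the 99th percentile concerns the mean of these probe sets. Cit, the gene of citron kinase, was at 7.80, 7.83 and 8.30, highest in mouse 106 as Kif14 was.

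**Figure D2:**
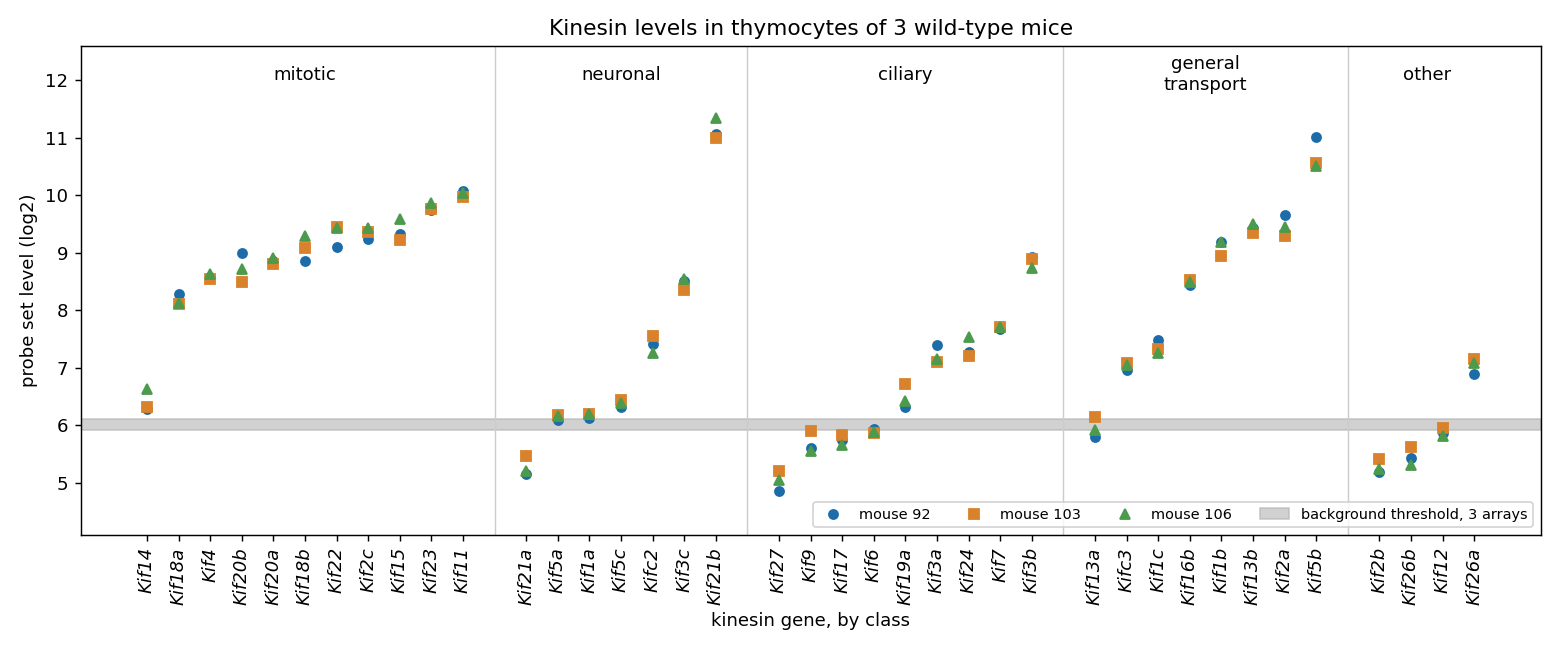
Log2 probe set level of each kinesin gene (vertical axis) in the 3 mice, genes grouped by class and ordered by mean (horizontal axis); each symbol is 1 mouse and the grey band spans the background thresholds of the 3 arrays, 5.92 to 6.10. The 11 mitotic kinesins lie above the band in every mouse, and the neuronal and ciliary classes extend from below it to well above it.

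The neuronal kinesins divided into genes well above background, genes at its edge and Kif21a, which was below it. By the 95th percentile 6 of 7 were above background on all arrays, but by the 99th only 3 of 7 were, near the 46.7% of all named genes. Kif21b, a kinesin-4 of neurons that is also known from lymphoid tissue and that limits microtubule growth, read 11.07, 10.996 and 11.35 (log2 level). Its relative Kif21a, an axonal motor, was at 5.16, 5.47 and 5.20, below background on each array. These relatives thus fell on opposite sides of the threshold in every mouse. Kif3c, a kinesin-2 subunit, was at 8.51, 8.36 and 8.54, and Kifc2, a kinesin-14 first described in the nervous system, at 7.42, 7.55 and 7.26. Both passed the stricter threshold too.

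The other neuronal members were close to the threshold. Kif1a, which carries synaptic vesicle precursors, was at 6.12, 6.19 and 6.21. The neuronal kinesin-1 heavy chain genes were likewise low, with Kif5a at 6.10, 6.17 and 6.17 and Kif5c at 6.31, 6.44 and 6.39. These 3 genes exceeded the threshold by 0.07 to 0.40 on the log2 scale, and between 2.69% and 4.28% of the receptor genes read at least as high on the same array. None of the 3 passed the 99th percentile. Among neuron markers 5 of 14 were above background by the 95th percentile and 1 of 14 by the 99th, where all named genes gave 61.7% and 46.7%, with Syp at 7.17 ± 0.06, Gap43 at 6.72 ± 0.16 and Eno2 at 6.71 ± 0.18 (log2 level, SD, n = 3), while the neurofilament genes Nefl and Nefm and the neuronal migration gene Dcx read below background on each array.

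Some ciliary kinesins were well above background and others were not. By the 95th percentile 5 of 9 were above background, close to the 61.7% of all named genes, and by the 99th 4 of 9 were, close to their 46.7%. Those 4 were Kif3a, Kif3b, Kif7 and Kif24. Kif3a and Kif3b form the motor of intraflagellar transport and also carry other cargo in cells; Kif3b was read at log2 levels of 8.93, 8.89 and 8.74, and Kif3a at 7.39, 7.11 and 7.15. Kifap3, the accessory subunit of that motor, was at 7.81, 7.32 and 7.52. All 3 subunits were above background in every mouse. All 3 read highest in mouse 92, as did 38.5% of all genes above background and 11 of 21 genes of intraflagellar transport. Kif7, which acts at the ciliary tip in Hedgehog signalling, was at 7.67, 7.71 and 7.71, and Kif24, a kinesin-13 of the mother centriole, at 7.27, 7.21 and 7.54.

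Kinesins of motile cilia were below background or passed only the looser threshold. Kif9 was at 5.61, 5.89 and 5.56, and Kif27 at 4.86, 5.21 and 5.05. Neither passed on any array. Kif6 was at 5.94, 5.87 and 5.89 and passed in mouse 92 alone, by 0.026; of its 2 probe sets the higher, at 6.18, 6.35 and 6.40, was above background throughout. Kif19a, which sets the length of motile cilia, was at 6.32, 6.71 and 6.43, above the 95th but not the 99th percentile. Kif17, a kinesin-2 of cilia and dendrites, was at 5.75, 5.84 and 5.67, below background. Of the markers of motile cilia 2 of 13 were above background and 0 of 13 by the 99th percentile, against 61.7% and 46.7% of all named genes. Those 2 were Ccdc40 at 6.26 ± 0.13 and Dnaic2 at 6.22 ± 0.02 (log2 level, SD, n = 3). Foxj1, at 6.03 ± 0.12, passed on 2 of the 3 arrays only. In contrast, 18 of 21 genes of intraflagellar transport were above background, and 14 of 21 by the 99th percentile. The highest of that list were Ift80 at 10.44 ± 0.24, Ift20 at 10.09 ± 0.07 and Ift52 at 9.21 ± 0.25 (log2 level, SD, n = 3). The protein of Ift20 is also known to serve the immune synapse of T cells. Ift81, Ift74 and Dync2li1 did not pass on all arrays.

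**Figure D3:**
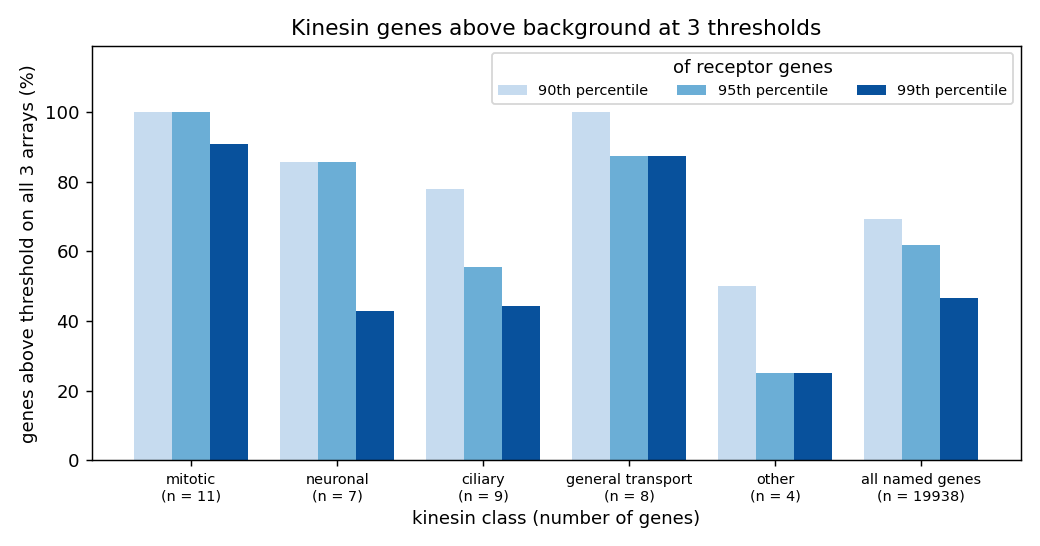
Share of genes above background on all 3 arrays (vertical axis, percent) for each kinesin class and for all 19938 named genes, at thresholds set to the 90th, 95th and 99th percentile of the receptor genes. The mitotic bar remains at 10 of 11 genes at the 99th percentile, where the neuronal bar stands at 3 of 7 and the ciliary bar at 4 of 9.

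Of the general transport kinesins 7 of 8 were above background at both the 95th and the 99th percentile, against 61.7% and 46.7% of all named genes. Kif5b, the kinesin-1 heavy chain of most cell types, read 11.01, 10.56 and 10.52 (log2 level), higher in mouse 92 than in the others. Its neuronal relatives Kif5a and Kif5c, at the edge of background, did not share that order. Kif13a, an endosome carrier of the kinesin-3 family, was at 5.79, 6.14 and 5.92 and passed in mouse 103 alone. The other 6, Kif1b, Kif1c, Kif2a, Kif13b, Kif16b and Kifc3, had mean log2 levels between 7.04 and 9.47. For Kif1c, a carrier of vesicles, probe sets 10377953 (8.02, 8.07 and 7.99) and 10377982 (6.95, 6.59 and 6.52) were both above background. Genes of kinesin light chains and cargo adaptors passed in 14 of 17 cases. Examples were Madd, an adaptor of kinesin-3 motors, at 10.06 ± 0.08, the light chain gene Klc1 at 9.94 ± 0.04 and the JNK scaffold gene Mapk8ip3 at 9.88 ± 0.08 (log2 level, SD, n = 3). The 3 that did not pass were Mapk8ip2, Grip1 and Fez1.

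Of the 4 kinesins outside the classes 1 was above background on all arrays, against 61.7% of all named genes. At the 90th percentile 2 passed, against 69.2%. Kif26a, a kinesin-11 that lacks motor activity, had log2 levels of 6.89, 7.16 and 7.08 and was above background. Kif26b (5.43, 5.62 and 5.31), Kif2b (5.19, 5.42 and 5.24) and Kif12 (5.87, 5.96 and 5.82) were below background in every mouse.

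No kinesin was called as varying between mice. The test covered 13307 genes that passed the threshold on any array. After Benjamini-Hochberg adjustment limma called 30 of them, or 0.225%, at 0.05, and without adjustment 4.84%. The called genes included 5 of 9 neutrophil, 1 of 5 erythroid and 1 of 7 B cell markers tested, all lowest in mouse 92. Among the 32 kinesins tested, 0 were called and 0 passed 0.05 unadjusted; a robust prior gave the same 2 counts. With mouse 92, 103 or 106 left out, 0 were called and 1, 1 and 2 passed 0.05 unadjusted. Kif5b had the smallest p, 0.0596 (adjusted p = 0.995, limma), with a range of 0.49 between mice, or 1.41-fold. Kif20b, with its range of 1.41-fold, came next (adjusted p = 0.995, limma). The median SD between mice was 0.11 for the 30 kinesins above background and 0.13 for all genes above background. In simulated data the test recovered 0 of 200 shifts of 1 on the log2 scale and 187 of 200 shifts of 2. Even the smaller shift exceeds every kinesin's range. The absence of calls therefore says nothing about differences of the size seen among the kinesins. As the labels do not describe how samples were taken, the p-values measure only the spread between these samples.

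Small differences nevertheless ran the same way through many, though not all, mitotic genes. These genes were read on the same 3 arrays and are not replicates. Of the 11 mitotic kinesins 7 read highest in mouse 106 (Kif2c, Kif4, Kif14, Kif15, Kif18b, Kif20a and Kif23), 3 in mouse 92 and 1 in mouse 103. Among all genes above background the shares highest in mice 106, 92 and 103 were 23.7%, 38.5% and 37.8%. The median deviation of the mitotic kinesins from their 3-mouse mean was 0.071 in mouse 106, -0.050 in mouse 92 and -0.053 in mouse 103 on the log2 scale, and that of all genes above background was -0.023, 0.0065 and 0.014. The lower values depended on the scaling: in mice 92 and 103 they were -0.107 and -0.015 after quantile normalisation and -0.101 and -0.025 after cyclic loess. The 24 mitosis partner genes, all above background, had median deviations of 0.094, -0.041 and -0.090 in mice 106, 92 and 103, and 17 of the 24 read highest in mouse 106. Among them Mki67, the proliferation marker, was at 11.05, 10.86 and 11.38, Numa1, of the spindle poles, at 10.72, 10.80 and 10.85, and the cyclin gene Ccnb2 at 10.52, 10.66 and 10.67. Cenpe, a kinetochore kinesin whose symbol lies outside the Kif series, was at 8.98, 8.67 and 8.92. No mitosis partner was called by limma either. The count of mitotic kinesins highest in mouse 106 was 8 after quantile normalisation and 8 after cyclic loess, against 24.8% and 28.2% of genes above background, and that of mitosis partners was 15 and 17. The erythroid, neutrophil and B cell markers had median deviations of 0.043, 0.46 and 0.17 in mouse 106, and of 0.28, 0.75 and 0.53 in mouse 103. Their part in the mitotic values was not tested.

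**Figure D4:**
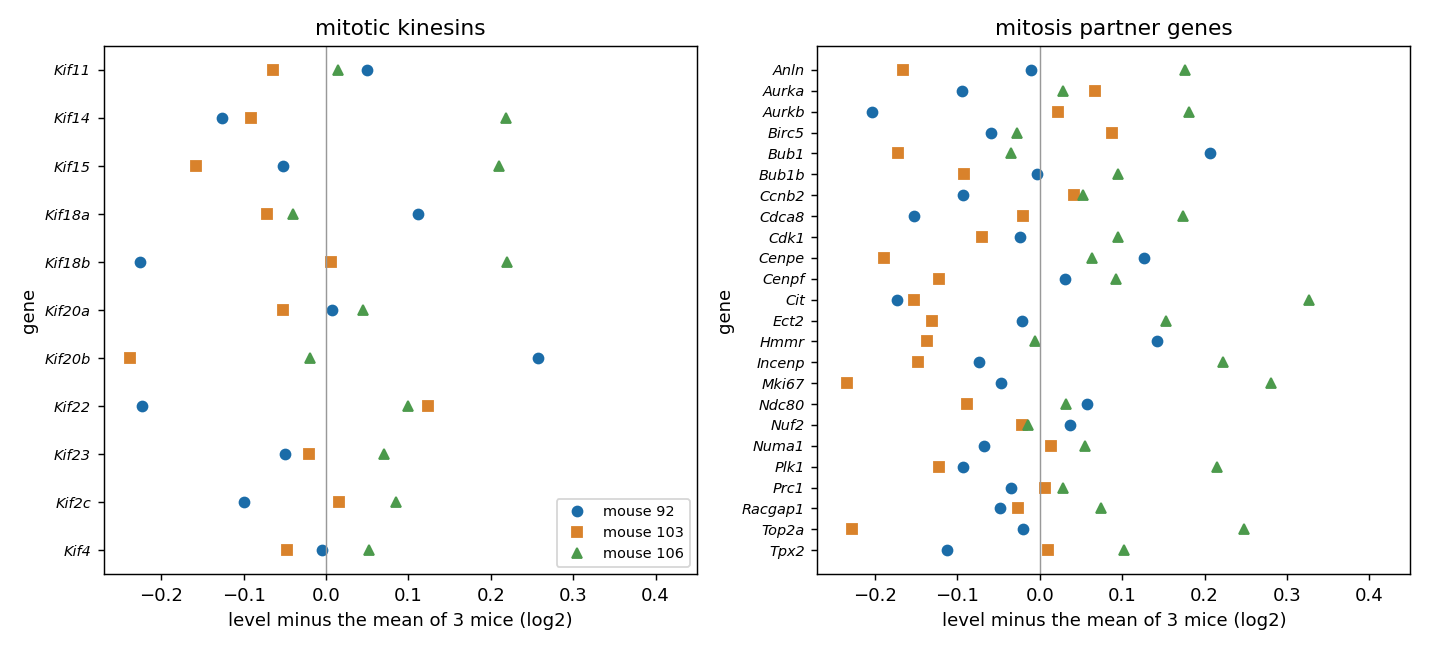
Log2 level in each mouse minus the mean of the 3 mice (horizontal axis) for the 11 mitotic kinesins and for 24 mitosis partner genes (vertical axes); each symbol is 1 mouse. Mouse 106 lies farthest to the right for 7 of 11 kinesins and 17 of 24 partner genes, at less than 0.4 above the 3-mouse mean in each case.

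The kinesins without a clear signal followed another order. Of the 9 members not above background on all arrays, 8 read highest in mouse 103, 1 in mouse 92 and 0 in mouse 106. Of all named genes that did not pass on all arrays, the shares highest in mice 103, 92 and 106 were 58.4%, 18.3% and 23.3%. The receptor genes that set the background also had their highest median in mouse 103, 4.18 against 4.02 in mouse 92 and 4.07 in mouse 106. The part of this background in the levels of these 9 kinesins was not tested.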

How the data were processed

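Levels of 3 wild-type thymocyte samples came from the value table that the authors deposited, with log2 levels of 35557 probe sets; the log2 scale was inferred from the range of the values. Per the submitters' processing notes, Affymetrix Expression Console made them; how it corrected background, summarised probes and scaled arrays is not stated there, nor its version. Of the probe sets, 21789 had 1 gene symbol in the platform annotation, 1621 had several and 12147 were not listed. Probe sets of a gene were averaged, which concerned 5 kinesins.

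Background was the 95th percentile of 1191 receptor genes, to be exceeded on every array. For the spread between mice limma 3.58.1 (R 4.3.3) fitted a mean to each of 13307 genes, and each variance was set against a trended prior that was not robust, as an upper-tail F ratio with 2 and 10.3 degrees of freedom, adjusted by Benjamini-Hochberg. Simulated data checked the test, which found large shifts in 1 mouse but not smaller ones that still exceeded every kinesin's range. Members, classes, lists and motifs were chosen with earlier results of these data known. Per-mouse levels were printed for all mitotic, neuronal and ciliary kinesins and for those outside the classes. General transport kinesins were printed per mouse if at the edge of their class or not above background on some array. The 3 highest mitosis partners were printed per mouse. For the adaptor, dynein, intraflagellar transport, thymocyte, neuron and motile cilia lists the 3 highest genes were given as mean and SD. Some other named genes of the lists were also printed per mouse. Promoter letters come from RefSeq (GRCm38.p6). Protein sequences were not used here, so the planned protein features were not computed, and Kif5a, Kif5b, Kif13b, Kif19a, Kif20a, Kif21b, Kifc2 and Kifc3 had no promoter entry. Alternatives were quantile, median and cyclic loess scaling, the highest probe set, other background percentiles, other class borders, other priors and leaving out each mouse.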

Additional observations from a re-analysis of the deposited data

How the results depend on the processing

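Detection depended mainly on the threshold. With the 99th receptor percentile 5 kinesins no longer passed (Kif14, Kif19a, Kif1a, Kif5a and Kif5c), which left 3 neuronal kinesins, and at the 90th percentile 4 more passed (Kif6, Kif12, Kif13a and Kif17), which gave 2 kinesins outside the classes. With Kif3a and Kif3b counted as general transport and Kif2a as mitotic, 3 of 7 ciliary and 12 of 12 mitotic kinesins were above background. With Kif21b counted as general transport, a choice made after the data were seen, 5 of 6 neuronal kinesins were above background. With Kif2b counted as mitotic, also chosen after the data were seen, 11 of 12 mitotic kinesins were. Quantile, median and cyclic loess scaling and leaving out any mouse changed no kinesin's call, and the highest probe set alone added Kif6. The median deviation of the mitotic kinesins in mouse 92 was between -0.060 and 0.021 when 1 of the other mice was left out, so its sign rests on mouse 106. In every alternative run limma called 0 kinesins, with 18 genes called over all after quantile or cyclic loess normalisation, 44 with a robust prior, and 58, 51 and 84 without mouse 92, 103 and 106. No paired analysis was possible because the samples form 1 group.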

Other observations

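Cytoplasmic dynein, the motor that walks opposite to most kinesins, was detected through nearly all of its genes. Of 20 genes of dynein, dynactin and their regulators, 19 were above background on all arrays, against 61.7% of all named genes. Dync1i2, the widely used intermediate chain gene, read 10.02, 9.81 and 9.76 (log2 level, mice 92, 103 and 106), and Dync1i1, its neuronal relative, was at 4.31, 4.39 and 4.18, below background in each mouse. Other members were the light chain genes Dynll1, 11.35 ± 0.05, and Dynlrb1, 10.88 ± 0.22, and the dynactin gene Dctn5, 10.55 ± 0.15 (SD, n = 3). TTTGAA stood in 1 of 16 dynein and dynactin windows (6.25%) and in 0 of 17 windows of intraflagellar transport genes.

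The pseudogene Kif4-ps, which resembles the mitotic kinesin gene Kif4, had 2 probe sets, at 5.36, 5.11 and 5.38 and at 5.67, 5.57 and 5.30, all below background.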
